A study of Mus musculus with 11 samples.

Results

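Prolactin receptor, STAT and SOCS signalling was followed here as a named list of 10 genes among the 27179 genes counted in every library: the receptor gene Prlr, the kinase gene Jak2, the transcription factor genes Stat3, Stat5a, Stat5b and Stat6, and the feedback genes Cish, Socs1, Socs2 and Socs3. They were chosen by name as parts of 1 pathway, and all 10 passed the filter on low counts. RNA-seq had been performed on 11 libraries, 9 of them from sorted mammary epithelial cells of virgin female FVB/N wild type mice of 8 weeks. These were 3 libraries each of CD24+CD29hi MaSC/basal cells (enriched for mammary stem cells, together with myoepithelial cells), CD24+CD29loCD61+ luminal progenitor-enriched cells (LP) and CD24+CD29loCD61- mature luminal-enriched cells (ML). The remaining 2 libraries were 1 of mammospheres, grown in suspension from MaSC/basal cells of the same strain, sex and age in medium with EGF, bFGF, insulin, hydrocortisone and B27, and 1 of Comma Dβ cells, the CommaD-βGeo cell line with mammary reconstituting ability that came from Balb/c mammary gland at mid-pregnancy. All groups were labelled wild type. The populations are gated fractions rather than pure types, and each culture was sequenced once.

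Prolactin is a pituitary hormone that drives the growth of mammary alveoli and the production of milk. It binds the prolactin receptor, which has no kinase of its own and works through the attached kinase JAK2. JAK2 phosphorylates STAT5A and STAT5B, which pair, enter the nucleus and bind DNA at a palindromic motif called GAS. Among the genes that STAT5 switches on are Cish and the Socs genes, whose proteins block the receptor or the kinase, so their RNA is often used as a readout of recent cytokine signalling. STAT3 answers cytokines of the IL-6 and LIF family and is known for its part in the involution of the gland after weaning, while STAT6 answers IL-4 and IL-13.

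The GAS motif was looked for in the reference sequence around the starts of these genes, because the results below set the receptor and STAT genes beside the feedback genes that STATs act on. The letters searched were TTCNNNGAA, which read the same on both strands. RefSeq windows (GRCm38.p6) of 250 bases before to 50 bases from each annotated start were on hand for 9 of the 10 genes, 13 windows in all, and 3 of the 13 held a match. Of all 32851 windows, 8.30% held at least 1 match and 0.457% held 2 or more. The STAT6-type spacing TTCNNNNGAA was in 0 of the 13 and in 6.95% of all windows. The 3 stretches below are the windows with a match, cut to the match and its surroundings, with the matching bases in capitals.
Cish, chr9:107296609-107296683, plus strand: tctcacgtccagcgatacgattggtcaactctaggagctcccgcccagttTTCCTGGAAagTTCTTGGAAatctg
Socs3, chr11:117969462-117969570, minus strand: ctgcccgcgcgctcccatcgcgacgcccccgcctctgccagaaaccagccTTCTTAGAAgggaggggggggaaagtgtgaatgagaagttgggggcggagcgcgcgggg
Prlr, chr15:10223746-10223854, plus strand: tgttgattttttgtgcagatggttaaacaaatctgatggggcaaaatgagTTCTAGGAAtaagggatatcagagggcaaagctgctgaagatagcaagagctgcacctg
Cish was the only member with 2 matches, at bases 1 and 12 counted from its annotated start. The Socs3 match began at position -154 from the start, and the Prlr match at position -110 from 1 of that gene's 3 annotated starts. Both starts lie inside the outer limits of their gene records in the same build (chr11:117966079-117970336 for Socs3 and chr15:10177238-10349190 for Prlr), so these matches are within the gene spans. A match is a description of the letters and was not tested as a binding site.

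Library sizes ran from 19958838 to 75795034 assigned reads, and values are given as TMM-scaled CPM, the reads of a gene as a share of the reads of its library on a common scale, so they are levels relative to the other RNA present. The sorted cells carried the markers of their labels: the summed CPM of 4 basal marker genes was 12427 to 16392 in MaSC/basal libraries and 46.3 to 312 in luminal ones, and that of 3 luminal marker genes was 734 to 913 and 7929 to 9818. The luminal separation was graded, with 5 mature luminal marker genes summing to 65.8 to 68.2 CPM in MaSC/basal, 235 to 493 CPM in LP and 1358 to 1884 CPM in ML libraries. The 8 immune marker genes summed to at most 10.9 CPM in any sorted library, with the leukocyte gene Ptprc at 0 to 1.66 CPM. Basal and luminal markers summed to 3273 and 2120 CPM in the mammospheres and to 1494 and 117 CPM in the Comma Dβ line. The labels place libraries in 3 batches, with batch 1 made with an earlier kit version. The 3 replicates of a population were described by the study as independent samples. MaSC/basal replicate 1 carries "p53" in its submitted name although its genotype label is wild type, and every call between MaSC/basal and luminal cells reported here for the 10 genes was also made without it.

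The 10 genes differed widely in level, which can be compared between genes only per length. On the scale of CPM per kilobase of gene length (RPKM), Stat3 was the first or second of the list in every sorted population, with 281 ± 41.1 among MaSC/basal, 341 ± 39.4 among LP and 227 ± 44.0 among ML libraries (SD, n = 3). The rest of the order changed with the population. In MaSC/basal cells Socs3 led with 315 ± 145 RPKM, overlapping Stat3, and Prlr came last with 1.61 ± 0.140 RPKM. In ML cells Prlr led with 296 ± 75.5 RPKM, again overlapping Stat3, and Socs1 was last with 4.97 ± 0.803 RPKM. In LP cells Stat3 stood above all others, the ranges of Socs3 (75.6 ± 20.4), Cish (70.3 ± 17.5), Prlr (64.3 ± 28.7) and Stat6 (53.1 ± 10.5 RPKM) each overlapped the next, and Socs1 was again last with 4.18 ± 0.917 RPKM. Of the 2 STAT5 genes, Stat5a was higher than Stat5b per length in all 9 sorted libraries.

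**Figure D1:**
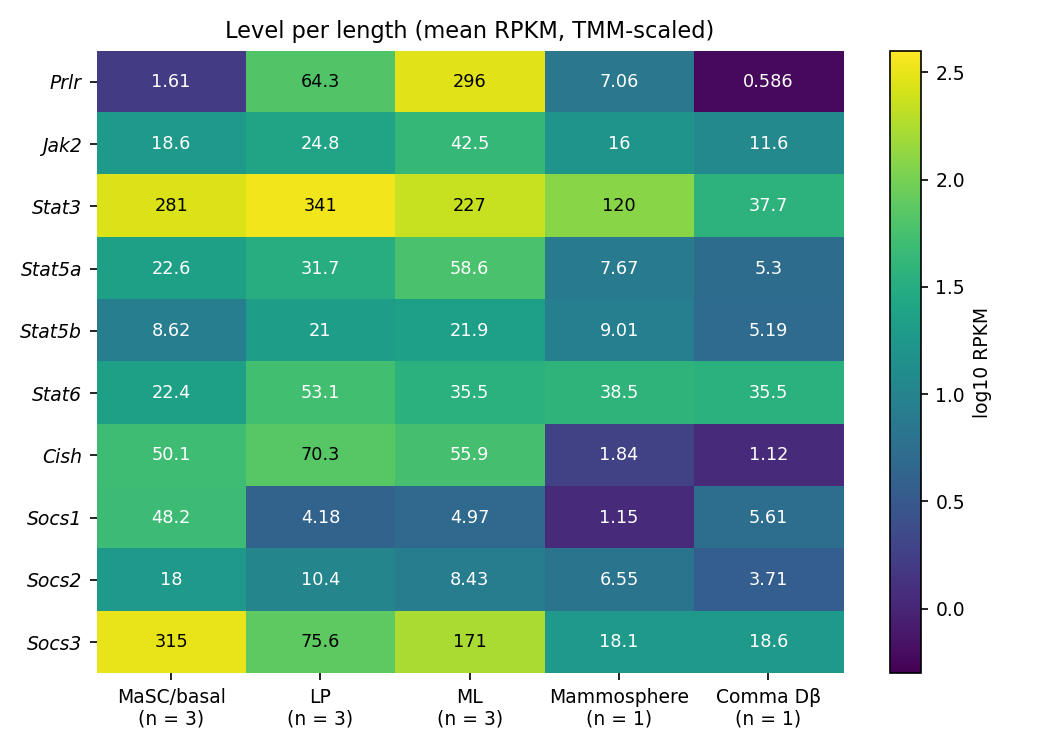
Mean level per length (RPKM, TMM-scaled, colour on a log10 scale) of the 10 genes in the 3 sorted populations and the 2 cultures. Prlr runs from 1.61 in MaSC/basal to 296 in ML cells, Socs1 from 48.2 to 4.97, and Stat3 is first or second in every column.

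The first question was how the pathway is laid out over the epithelial lineages, beginning with the receptor. Prlr was measured at 23.8, 20.6 and 20.5 CPM in the MaSC/basal libraries, at 486, 845 and 1255 CPM in LP and at 4238, 2848 and 4820 CPM in ML. The 3 populations did not overlap, so the order MaSC/basal, LP, ML necessarily held within every batch for the populations it contained. The difference of MaSC/basal from LP was -5.32 ± 0.38 on the log2 scale (SE; 39.9-fold higher in LP, edgeR adjusted p = 2.27e-06), and that from ML was -7.52 ± 0.43 (184-fold higher in ML, edgeR adjusted p = 4.60e-07). Prlr was also lower in LP than in ML by -2.20 ± 0.33 (4.60-fold, edgeR adjusted p = 0.00158). In sorted fractions fewer receptor-bearing cells and less RNA per cell cannot be told apart. Among the LP libraries, the one with more Prlr had more of the mature luminal genes: Foxa1, a partner of the estrogen receptor, stood at 75.2, 77.1 and 122 CPM and Pgr, the progesterone receptor gene, at 45.0, 71.2 and 118 CPM in LP replicates 1, 2 and 3. Within ML, replicate 2 had the least Prlr, the least Foxa1 (241 CPM against 310 and 400) and the most Itgb3 (34.0 CPM against 8.68 and 4.51), the gene of the CD61 antigen used to gate LP from ML. Of the other mature luminal marker genes, Esr1, Pgr and Ly6a were also lowest in ML replicate 2. Prom1 was lowest in replicate 3, at 447, 432 and 402 CPM in ML replicates 1, 2 and 3. The part of these mature and progenitor markers in the Prlr values was not tested.

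**Figure D2:**
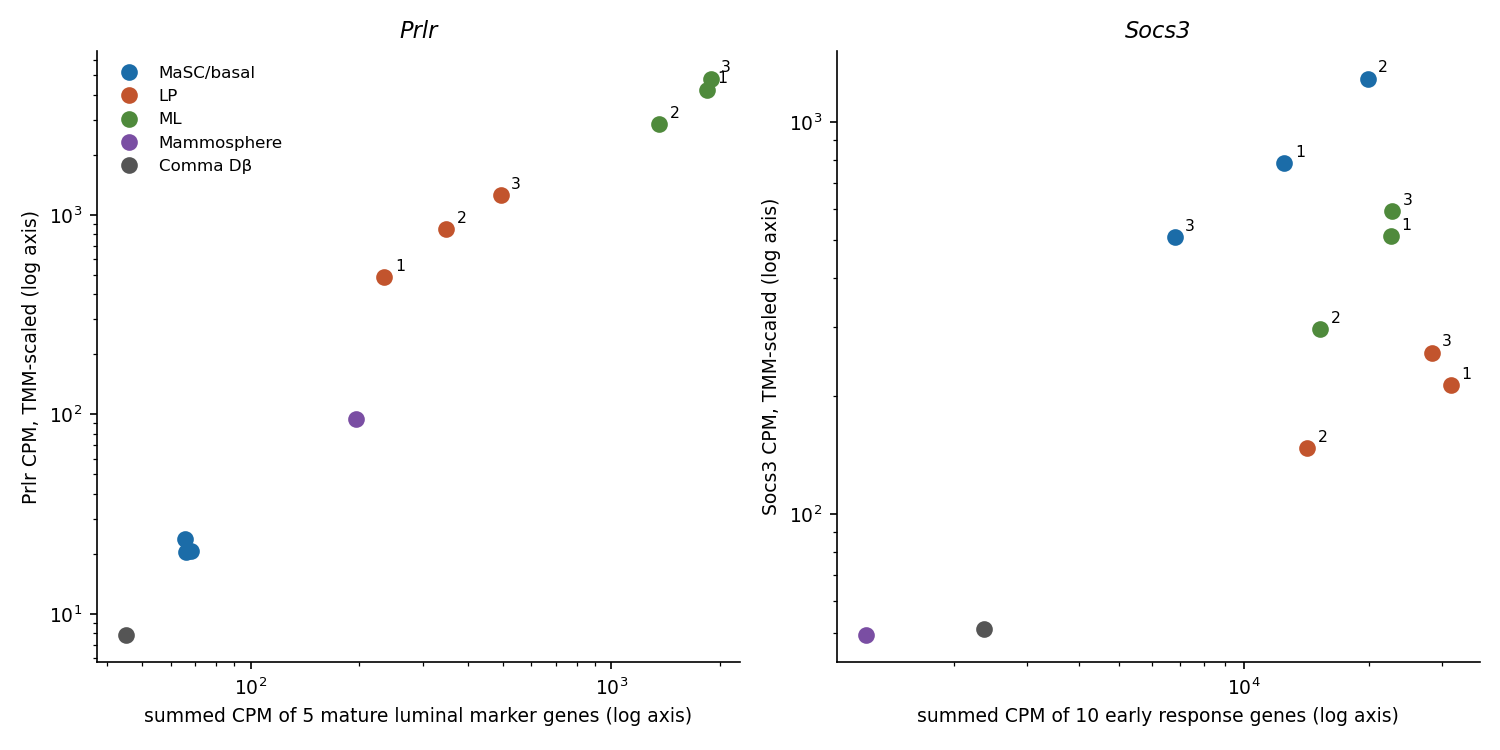
Left, Prlr CPM in each of the 11 libraries against the summed CPM of 5 mature luminal marker genes; right, Socs3 CPM against the summed CPM of 10 early response genes, all axes logarithmic and the LP, ML and, on the right, MaSC/basal points numbered by replicate. On the left the libraries order by population, from 20.5 to 23.8 CPM in MaSC/basal to 2848 to 4820 CPM in ML cells. On the right both cultures lie below all sorted libraries on both axes, with Socs3 at 49.4 and 51.0 CPM.

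Jak2, which carries the signal of the prolactin, growth hormone and several other receptors, varied far less. It stood at 86.8, 65.8 and 129 CPM in MaSC/basal, 107, 125 and 142 CPM in LP and 212, 196 and 233 CPM in ML. The ML libraries lay above all others, while MaSC/basal and LP overlapped. The log2 difference of MaSC/basal minus ML was -1.19 ± 0.23 (2.28-fold higher in ML, edgeR adjusted p = 0.00116), and that of LP minus ML was -0.78 ± 0.22 (edgeR adjusted p = 0.0253). That second call was lost when LP replicate 1, LP replicate 2, ML replicate 1 or ML replicate 3 was left out (edgeR adjusted p = 0.0676 to 0.0929). MaSC/basal minus LP was -0.41 with a 95% interval of -0.91 to 0.085 (edgeR adjusted p = 0.140), and without MaSC/basal replicate 3, the highest of its group, it was -0.72 (edgeR adjusted p = 0.00794).

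The 2 STAT5 genes are neighbours on chromosome 11 that lie 346 bases apart. From MaSC/basal to LP to ML, Stat5a rose stepwise, with 80.9, 93.0 and 89.1 CPM in MaSC/basal, 128, 122 and 120 CPM in LP and 261, 211 and 212 CPM in ML. No 2 of its populations overlapped, and its coefficient of variation within a population was 3.69 to 12.7%, the smallest maximum in the list. The log2 differences were -0.49 ± 0.13 for MaSC/basal minus LP (edgeR adjusted p = 0.00703), -1.38 ± 0.13 for MaSC/basal minus ML (edgeR adjusted p = 9.34e-06) and -0.89 ± 0.13 for LP minus ML (edgeR adjusted p = 0.00127). Stat5b was at 46.3, 57.9 and 36.6 CPM in MaSC/basal, 139, 94.3 and 110 CPM in LP and 133, 112 and 111 CPM in ML. Both luminal populations were above MaSC/basal, by -1.29 ± 0.20 (edgeR adjusted p = 3.12e-04) and -1.34 ± 0.20 (edgeR adjusted p = 2.16e-04) as MaSC/basal minus LP and minus ML. Between LP and ML the Stat5b difference was -0.056 with a 95% interval of -0.49 to 0.38 (edgeR adjusted p = 0.851).

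As a description without a test, the per-length ratio of Stat5a to Stat5b was 2.44, 2.25 and 3.41 for MaSC/basal, 1.29, 1.81 and 1.52 for LP and 2.75, 2.63 and 2.67 for ML. The LP libraries thus had the lowest ratios of the sorted cells, without overlap with the other populations. The transcripts of the 2 genes share sequence: of the 100-base windows in the longest transcript of each, 2.85% for Stat5a and 5.18% for Stat5b occur exactly in a transcript of the other gene, so reads from those stretches are uncertain.

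Stat3 was abundant everywhere, at 1129, 1185 and 1473 CPM in MaSC/basal, 1555, 1696 and 1345 CPM in LP and 893, 1244 and 913 CPM in ML. MaSC/basal overlapped both luminal populations, with log2 differences of -0.28 (95% interval -0.71 to 0.16, edgeR adjusted p = 0.245) to LP and 0.31 (-0.12 to 0.75, edgeR adjusted p = 0.194) to ML. LP lay above ML by 0.59 ± 0.20 (edgeR adjusted p = 0.0429). This call was lost with library size alone as the scaling, without the filter on low counts, and when MaSC/basal replicate 1 or 2, LP replicate 1 or 2, or ML replicate 1 or 3 was left out (edgeR adjusted p = 0.0501 to 0.140).

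Stat6, like Stat3, had its highest mean in LP, at 241, 204 and 161 CPM, against 78.3, 93.8 and 84.1 CPM in MaSC/basal and 133, 152 and 120 CPM in ML. No populations overlapped. MaSC/basal was lower than LP by a log2 difference of -1.24 ± 0.17 (2.37-fold, edgeR adjusted p = 1.37e-04) and lower than ML by -0.66 ± 0.17 (1.58-fold, edgeR adjusted p = 0.00619). LP minus ML was 0.58 ± 0.17 (edgeR adjusted p = 0.0249), a call lost with library size alone (edgeR adjusted p = 0.0576) and without LP replicate 1, LP replicate 2, ML replicate 1 or ML replicate 3 (edgeR adjusted p = 0.0560 to 0.0834). Stat6 overlaps Nab2 in the annotation, the only member with an overlapping gene in these files, and whether the counting used strand is not given in the sources used here.

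Among the feedback genes, Socs1, an inhibitor of JAK kinases that is best known from interferon signalling, had the largest differences. It was at 68.3, 56.6 and 51.5 CPM in MaSC/basal libraries, at 6.31, 4.87 and 4.11 CPM in LP and at 7.10, 5.95 and 5.15 CPM in ML. Every MaSC/basal library was above every luminal one. The log2 differences were 3.52 ± 0.21 against LP (11.5-fold, edgeR adjusted p = 8.14e-07) and 3.27 ± 0.21 against ML (9.66-fold, edgeR adjusted p = 9.04e-07), opposite in direction to Prlr. LP and ML overlapped in Socs1, with a difference of -0.25 (95% interval -0.70 to 0.20, edgeR adjusted p = 0.370). The sum of 4 endothelial marker genes was also higher in MaSC/basal, at 40.5 to 82.9 CPM there and 7.10 to 34.8 CPM in luminal libraries. Of the 4, 3 were called higher than in LP and 2 higher than in ML, against 29.4% and 28.9% of all genes. The part of these markers in the differences of Socs1, Socs2 and Socs3 was not tested.

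Socs3, the inhibitor of gp130-type receptors, was at 785, 1290 and 508 CPM in MaSC/basal, 213, 148 and 258 CPM in LP and 512, 297 and 593 CPM in ML. LP lay below both other populations, which overlapped. MaSC/basal exceeded LP by 2.06 ± 0.38 (4.17-fold, edgeR adjusted p = 9.79e-04), and LP minus ML was -1.18 ± 0.37 (edgeR adjusted p = 0.0342), a call lost without MaSC/basal replicate 1, LP replicate 1, LP replicate 2, ML replicate 1 or ML replicate 3 (edgeR adjusted p = 0.0507 to 0.120). Against ML the MaSC/basal difference was 0.88 ± 0.36 (edgeR adjusted p = 0.0599), and with batch as a block it was 1.19 (edgeR adjusted p = 0.0246). It also passed the threshold with the DESeq2 Wald test (adjusted p = 0.0248), with the 9 sorted libraries alone (edgeR adjusted p = 0.0476), and when MaSC/basal replicate 3 (log2 difference 1.16) or ML replicate 3 (1.09) was left out.

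Cish, the feedback gene closest to STAT5, was at 109, 153 and 61.9 CPM in MaSC/basal, 189, 154 and 113 CPM in LP and 113, 162 and 87.7 CPM in ML. All 3 populations overlapped and no comparison passed the threshold: the log2 differences were -0.49 (95% interval -1.23 to 0.25) for MaSC/basal minus LP, -0.16 (-0.90 to 0.58) for MaSC/basal minus ML and 0.33 (-0.41 to 1.07) for LP minus ML, with edgeR adjusted p = 0.230, 0.700 and 0.476. The 184-fold range of Prlr between MaSC/basal and ML thus stood beside a Cish difference whose interval lay within 1 log2 unit. Cish and Socs3 had wide spread within populations, with coefficients of variation of 24.8 to 42.3% and 26.9 to 46.1%. In MaSC/basal cells both genes were highest in replicate 2 and lowest in replicate 3, and so was the sum of 10 early response genes that are known to rise when tissue is dissociated (Fos, Egr1 and others), at 12515, 19837 and 6808 CPM in replicates 1, 2 and 3. In ML, Socs3 followed the order of this sum (22616, 15257 and 22734 CPM), while Cish was highest where the sum was lowest. In LP the sum was 31442, 14182 and 28329 CPM. There Socs3 was lowest where the sum was lowest but highest in replicate 3. Cish was highest where the sum was highest but lowest in replicate 3, not where the sum was lowest. The part of the dissociation response in these values was not tested.

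Socs2, known as the brake on growth hormone signalling, was at 38.3, 39.1 and 68.4 CPM in MaSC/basal, 27.3, 37.4 and 19.1 CPM in LP and 22.5, 29.9 and 15.9 CPM in ML. MaSC/basal libraries lay above all luminal libraries, narrowly so against LP. The log2 difference was 1.09 ± 0.32 against ML (edgeR adjusted p = 0.0141), which was 0.77 without MaSC/basal replicate 3 (edgeR adjusted p = 0.0587), and 0.79 ± 0.32 against LP (edgeR adjusted p = 0.0551). The latter passed the threshold with library size alone, with the DESeq2 Wald test, and without LP replicate 2, ML replicate 2 or ML replicate 3 (adjusted p = 0.0207 to 0.0443).

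**Figure D3:**
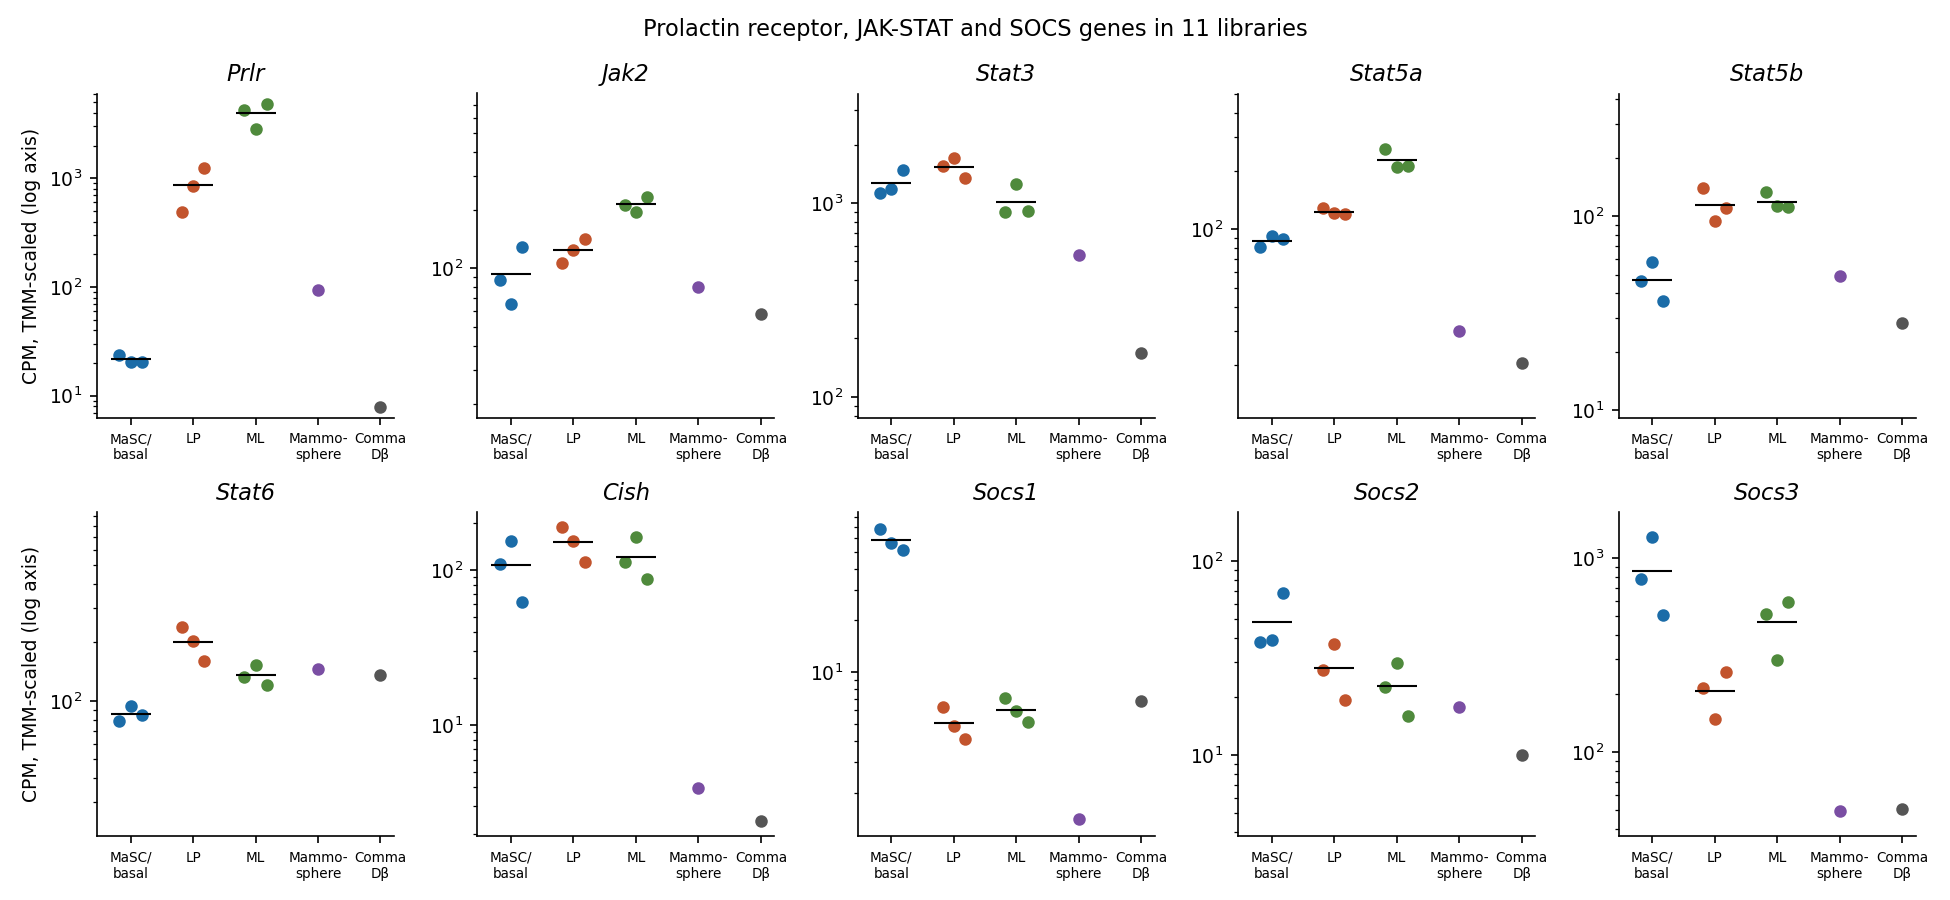
CPM (TMM-scaled, log axis) of each of the 10 genes in every library, with points for libraries and a line for the mean of the 3 replicates. Prlr climbs from 20.5 to 23.8 CPM in MaSC/basal to 2848 to 4820 CPM in ML, Socs1 drops from 51.5 to 68.3 CPM to at most 7.10 CPM in luminal cells, and Cish overlaps among the sorted populations but is at 3.97 and 2.42 CPM in the cultures.

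Counted over the list, 6 of the 10 genes passed the threshold of adjusted p below 0.05 between MaSC/basal and LP, where 57.4% of the 15422 genes tested did. Of the 6, Prlr, Stat5a, Stat5b and Stat6 were higher in LP (28.0% of all genes) and Socs1 and Socs3 higher in MaSC/basal (29.4%). Between MaSC/basal and ML 7 of 10 passed, against 58.7% of all genes, with Prlr, Jak2, Stat5a, Stat5b and Stat6 higher in ML (29.7%) and Socs1 and Socs2 higher in MaSC/basal (28.9%). Between LP and ML 6 of 10 passed, against 31.8% of all genes, with Prlr, Jak2, Stat5a and Socs3 higher in ML (17.5%) and Stat3 and Stat6 higher in LP (14.3%). The libraries of 2 populations did not overlap for 7, 7 and 6 of the 10 genes in these comparisons, and for 63.9%, 65.5% and 47.9% of all genes. The median log2 difference of the 10 genes was -0.45, -0.41 and -0.15, and that of all genes -0.0079, -0.0058 and -0.014. In the comparisons with MaSC/basal the share of called members was near the background, and each pair of comparisons shares the libraries of 1 population. Every called difference (6, 7 and 6 genes) was among those without overlap, which fixes its sign within any batch that held both populations. Its sign in the 2, 2 and 3 such batches is thus no separate check. Of the differences that were not called, 4 of 4, 3 of 3 and 2 of 4 had the same sign in every such batch.

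**Figure D4:**
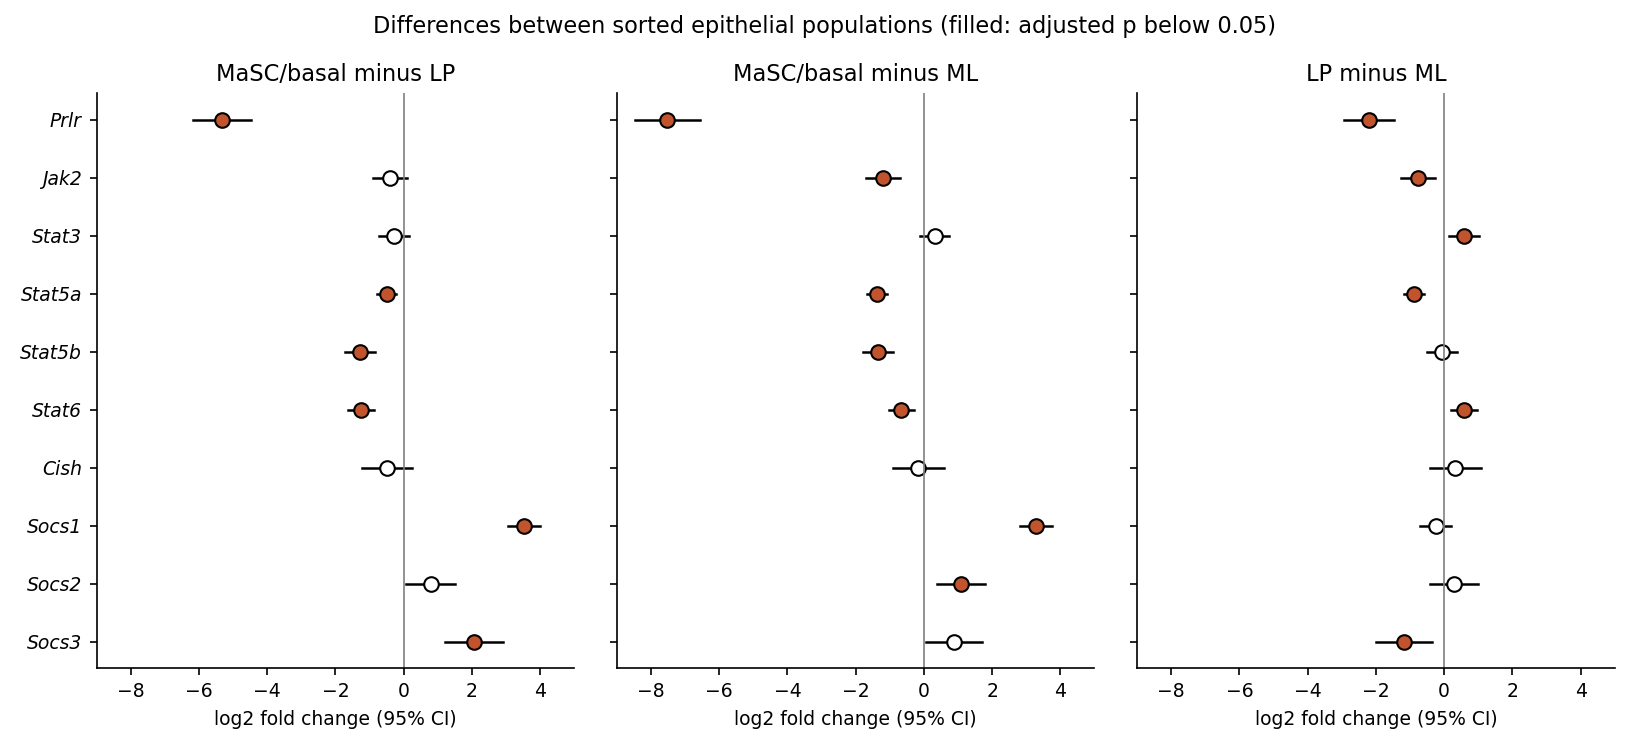
Log2 fold changes of the 10 genes in the 3 comparisons of sorted populations, with 95% confidence intervals of the edgeR fit and filled points for adjusted p below 0.05. Receptor and STAT5 genes lie to the luminal side (Prlr at -5.32 and -7.52 in the comparisons with MaSC/basal), Socs1 to the basal side (3.52 and 3.27), and Cish has intervals that cross 0 in all panels.

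The cultures were compared with the 3 MaSC/basal libraries by fold alone, since 1 library per culture gives no replicate check and no test. A gene was counted as past the fold when its CPM was over 2-fold from the MaSC/basal mean and outside the range of the 3 libraries. Intervals are exact Poisson intervals and cover counting error only. In the mammosphere library 7 of the 10 genes were past the fold, where 40.2% of all genes were: 1 was higher and 6 were lower, against 19.5% and 20.7% of all genes. In Comma Dβ cells 7 of the 10 were past the fold, where 42.4% of all genes were, with 0 higher and 7 lower against 16.7% and 25.7%. The median log2 ratio of the 10 genes was -1.34 in mammospheres and -2.18 in Comma Dβ cells, against -0.023 and 0.034 for all genes. With library size alone as the scaling, Stat6 in mammospheres also passed the fold (log2 ratio 1.01) and Stat3 no longer did (-0.99).

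Cish, Socs1 and Socs3 had the largest ratios of the 10 genes in both cultures. Cish was at 3.97 CPM in mammospheres (176 reads, log2 ratio -4.77, interval -4.99 to -4.56) and at 2.42 CPM in Comma Dβ cells (71 reads, -5.48, interval -5.84 to -5.15), which is 27.3-fold and 44.8-fold below the MaSC/basal mean. Socs3 was at 49.4 and 51.0 CPM, 17.4-fold and 16.9-fold below. Both cultures thus lay under every sorted library in these genes. Socs1 was at 1.40 CPM in mammospheres, 42.1-fold below MaSC/basal and under the luminal libraries too, whereas its 6.84 CPM in Comma Dβ cells, 8.59-fold below, was within the range of ML. Socs2 was lower by 2.75-fold in mammospheres (17.7 CPM) and by 4.86-fold in Comma Dβ cells (10.0 CPM). The 10 early response genes summed to 1228 and 2364 CPM in the cultures against 6808 CPM or more in each sorted library. Their part in the lower Cish and Socs values was not tested. The mammosphere library was in batch 1 with MaSC/basal replicate 1, while MaSC/basal replicates 2 and 3 were in batch 2. The Comma Dβ library was in batch 3, which held no MaSC/basal library. Culture, dissociation and, for Comma Dβ cells, strain, stage and batch cannot be told apart.

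Prlr was past the fold in opposite directions in the 2 cultures: it was at 94.7 CPM in mammospheres, 4.38-fold above MaSC/basal but under every luminal library, and at 7.86 CPM in Comma Dβ cells, 2.75-fold below. The mature luminal markers summed to 196 CPM for the mammospheres and 45.1 CPM for the line, above and below the MaSC/basal range. The mammosphere sum came mostly from Prom1 (99.0 CPM) and Ly6a (77.0 CPM), and Foxa1 was 2.02-fold above the MaSC/basal mean. The hormone receptor genes of the list lay below MaSC/basal there, Esr1 at 2.75 CPM (4.20-fold) and Pgr at 7.06 CPM (3.01-fold). In the line Prom1, Pgr and Foxa1 lay below every MaSC/basal library, while Ly6a (19.8 CPM) and, narrowly, Esr1 (12.3 CPM) lay above all of them. The part of these markers in the Prlr values was not tested. Stat5a was lower in both, at 29.8 CPM (2.94-fold) and 20.6 CPM (4.26-fold), while Stat5b at 49.0 and 28.3 CPM did not pass the fold. The per-length ratio of Stat5a to Stat5b was 0.851 in mammospheres and 1.02 in Comma Dβ cells, below each sorted library. Stat3 was at 540 CPM (2.34-fold lower) and 169 CPM (7.47-fold lower). Jak2, at 80.4 and 58.4 CPM, and Stat6, at 147 and 135 CPM, did not pass the fold, although Stat6 in both cultures exceeded all 3 MaSC/basal libraries. Fibroblast marker genes summed to 1730 CPM for the mammospheres, 2045 CPM for the line and 187 to 768 CPM in sorted libraries. The culture sums came mostly from Col1a1 (838 and 809 CPM) and Col1a2 (686 and 1019 CPM). Pdgfra was also above MaSC/basal in both (59.3 and 125 CPM), while Dcn was below it in both (98.6 and 91.5 CPM). Lum was above MaSC/basal in mammospheres (48.5 CPM) and below it in Comma Dβ cells (0.681 CPM).

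**Figure D5:**
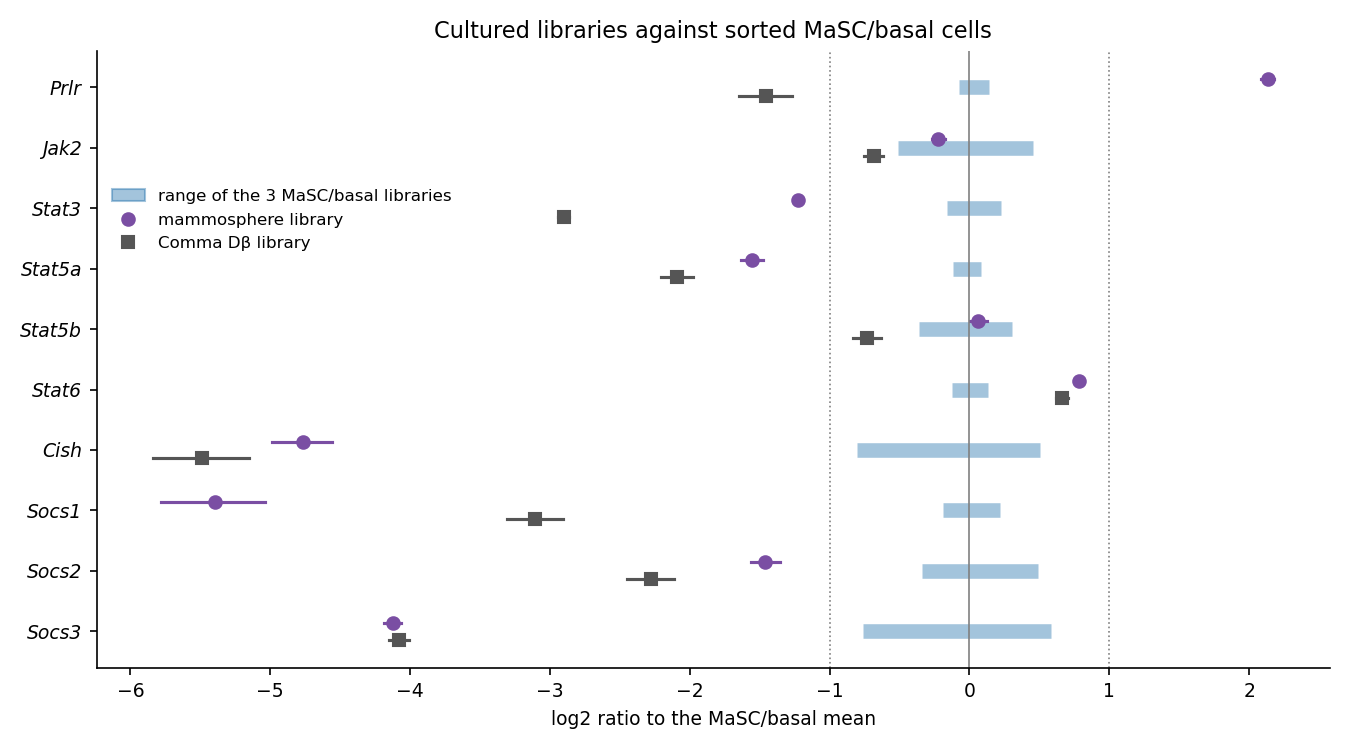
Log2 ratio of the mammosphere and Comma Dβ libraries to the mean of the 3 MaSC/basal libraries for the 10 genes, with exact Poisson intervals, the MaSC/basal range as a bar and dotted lines at 2-fold. Cish, Socs1 and Socs3 lie farthest to the left (Cish at -4.77 and -5.48), and Prlr is the only gene to the right of the upper line (2.13 in mammospheres).

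The other genes of the pathway were taken from lists of names: 107 genes in 9 lists, of which 92 passed the filter. RNA of the hormone itself was not detectable at this depth: Prl had 0 reads in every sorted library and in Comma Dβ cells, which allows up to 0.0399 to 0.160 CPM, and 1 read in mammospheres. Of the 17 ligand genes 7 passed the filter. Prl, Gh, Csf2, Epo, Thpo, Osm, Cntf, Il4, Il13 and Ifng did not. Of the 7, 3 were higher in MaSC/basal than in LP and 1 lower, and 4 were higher in MaSC/basal than in ML and 1 lower. Lep, which was called higher in MaSC/basal in both comparisons, and Il10 were above 0.5 CPM in the MaSC/basal libraries alone. They passed the filter only through that group, so the counts higher in MaSC/basal depend in part on the filter. Between LP and ML 2 were higher in LP. The 2 became 0 without LP replicate 1, LP replicate 2 or ML replicate 1, and 1 without MaSC/basal replicate 1, LP replicate 3 or ML replicate 3. Of all genes tested 29.4% were higher and 28.0% lower in MaSC/basal than in LP. The shares were 28.9% and 29.7% against ML, and 14.3% and 17.5% in LP against ML. Lif, whose receptor signals through STAT3, was at 54.8, 65.4 and 66.6 CPM in MaSC/basal, 1902, 1509 and 654 CPM in LP and 465, 665 and 199 CPM in ML. Its MaSC/basal minus LP difference was -4.44 ± 0.51 (21.8-fold, edgeR adjusted p = 4.34e-05) and LP minus ML was 1.61 ± 0.45 (edgeR adjusted p = 0.0226), a call lost without LP replicate 1, LP replicate 2 or ML replicate 1 (edgeR adjusted p = 0.0570 to 0.0727). Il11, of the same cytokine family, was 6.55-fold higher in MaSC/basal than in LP (22.9 and 3.39 CPM, edgeR adjusted p = 0.00176).

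Of 26 other cytokine receptor genes 21 were tested, and Il13ra2, Il7r, Csf3r and Il10ra were among those below the filter. Between MaSC/basal and LP 6 were higher and 6 lower, between MaSC/basal and ML 7 and 6, and between LP and ML 6 and 5, where the shares of all genes were 29.4% and 28.0%, 28.9% and 29.7%, and 14.3% and 17.5%. The 7 receptors higher in MaSC/basal than in ML became 4 without MaSC/basal replicate 2 or ML replicate 2, 3 without ML replicate 1 and 2 without MaSC/basal replicate 3. The 6 higher in LP than in ML became 2 with library size alone or without LP replicate 1 and 3 without LP replicate 2, ML replicate 1 or ML replicate 3, and the 5 lower became 2 without LP replicate 1 or ML replicate 3 and 3 without ML replicate 1. Ifngr2, a subunit of the interferon gamma receptor, was lower in MaSC/basal than in LP (19.3 and 62.1 CPM, log2 difference -1.69 ± 0.24, edgeR adjusted p = 1.68e-04). Cntfr, the receptor subunit for ciliary neurotrophic factor, was lower in LP than in ML (4.58 and 26.5 CPM, -2.55 ± 0.42, edgeR adjusted p = 0.00227). The largest called difference among these receptors was that of Il20ra between MaSC/basal and LP, at 4.76 ± 0.68 with levels of 3.53 and 0.127 CPM (edgeR adjusted p = 1.96e-04). The LP libraries held only 2, 8 and 3 reads of Il20ra, so the size of this difference is uncertain.

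The remaining 6 JAK and STAT genes all passed the filter. Jak3, the kinase of receptors with the common gamma chain and best known in lymphocytes, was at 6.77, 5.42 and 13.3 CPM in MaSC/basal, 84.4, 84.0 and 76.7 CPM in LP and 78.9, 65.3 and 86.8 CPM in ML. The luminal libraries were all above the MaSC/basal ones, 9.62-fold for LP (edgeR adjusted p = 1.05e-05) and 9.06-fold for ML (edgeR adjusted p = 1.09e-05). The 8 immune marker genes together stayed at or under 10.9 CPM in sorted libraries, and the part of immune cells in the Jak3 values was not tested. Stat2, which serves interferon receptors, was lower in LP (43.4 CPM) than in MaSC/basal (83.4 CPM, edgeR adjusted p = 0.00658) and ML (96.4 CPM, edgeR adjusted p = 0.00613). In all, 1 of the 6 was higher and 3 lower in MaSC/basal than in LP, and 0 and 4 against ML. In LP 0 were higher and 3 lower than in ML, where 1 was lower without LP replicate 1, LP replicate 2 or ML replicate 1. In the same order, the shares of all genes were 29.4% and 28.0%, 28.9% and 29.7%, and 14.3% and 17.5%. Of the 4 other SOCS genes, Socs5 was higher and Socs4 lower in MaSC/basal than in both luminal populations, all by less than 2-fold, with edgeR adjusted p = 0.0288 and 0.0345 for Socs5 and 0.0179 and 0.0110 for Socs4. Both Socs5 calls were lost with batch as a block (edgeR adjusted p = 0.0664 and 0.0762) and without MaSC/basal replicate 3 (0.110 and 0.126). The call against LP was also lost without LP replicate 1 or 3 and that against ML without ML replicate 1 or 3. The Socs4 call against LP was lost with library size alone and without MaSC/basal replicate 1 (edgeR adjusted p = 0.0535 and 0.0557). Socs7 was 1.71-fold higher in MaSC/basal than in ML (86.1 and 50.1 CPM, edgeR adjusted p = 0.00794).

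Among 13 phosphatase, PIAS and adaptor genes, 3 were higher and 5 lower in MaSC/basal than in LP, 4 and 5 against ML, and 2 and 3 in LP against ML. Leaving out 1 library gave 1 to 3 and 2 to 5, 2 to 4 and 4 to 5, and 1 to 3 and 3 in the same order. The 5 lower than LP became 1 with library size alone and 2 with batch as a block, without MaSC/basal replicate 2 or without LP replicate 3. For all genes the shares higher and lower were 29.4% and 28.0% in MaSC/basal against LP. They were 28.9% and 29.7% against ML, and 14.3% and 17.5% in LP against ML. Ptpn1, a tyrosine phosphatase that acts on JAK2, was at 452 CPM in ML, 189 CPM in MaSC/basal and 173 CPM in LP, 2.39-fold and 2.61-fold higher in ML (edgeR adjusted p = 1.71e-04 and 9.63e-04). Ptpn6, the phosphatase SHP-1, was 3.67-fold higher in ML than in MaSC/basal (27.5 and 7.48 CPM, edgeR adjusted p = 7.40e-05). Sh2b2, an adaptor, was highest in MaSC/basal, 2.19-fold above LP and 3.64-fold above ML (edgeR adjusted p = 0.0159 and 9.77e-04), although the first call was lost without LP replicate 3 (edgeR adjusted p = 0.0568).

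Of 13 genes known as prolactin and STAT5 targets, all tested, 9 were lower in MaSC/basal than in LP and 1 was higher, 9 were lower than in ML and 0 higher, and between LP and ML 8 were higher in LP and 0 in ML, the direction opposite to that of Prlr. Of all genes tested 29.4% were higher and 28.0% lower in MaSC/basal than in LP, and 28.9% and 29.7% against ML. Between LP and ML 14.3% were higher in LP and 17.5% in ML. The 8 became 5 without LP replicate 1 or 2 and 4 without ML replicate 1, and with batch as a block 1 gene was higher in ML. The median log2 differences were -6.11, -3.32 and 2.04. The list holds the milk protein genes Csn2, Csn1s1, Csn1s2a, Csn3, Wap, Lalba and Glycam1. Elf5 belongs to this list and to the luminal progenitor markers. Csn2, the gene of beta-casein, was at 25.1, 16.9 and 21.7 CPM in MaSC/basal, 1708, 5190 and 1153 CPM in LP and 61.2, 605 and 16.1 CPM in ML, with LP 11.8-fold above ML (log2 difference 3.56 ± 1.12, edgeR adjusted p = 0.0360). This call was lost when any MaSC/basal library, LP replicate 1, LP replicate 2 or ML replicate 1 was left out (edgeR adjusted p = 0.0512 to 0.112). LP replicate 2 and ML replicate 2, of the same batch, were the highest of their groups. Lalba, the alpha-lactalbumin gene, was at 7.90 CPM in MaSC/basal and 1226 CPM in LP (155-fold, edgeR adjusted p = 2.47e-05). Tnfsf11, which encodes RANKL, was the named target that was lowest in MaSC/basal and highest in ML, at 0.344 and 7.72 CPM (edgeR adjusted p = 0.0120, limma voom adjusted p = 0.0574), and its ML libraries ran from 0.764 to 15.9 CPM.

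Of 10 genes known as STAT3 targets, 0 were higher and 4 lower in MaSC/basal than in LP, 2 and 1 against ML, and 6 were higher and 0 lower in LP than in ML. The 2 became 0 without ML replicate 1 and 1 without MaSC/basal replicate 2 or ML replicate 2. Beside this list and the next, 29.4% of all genes were higher and 28.0% lower in MaSC/basal than in LP. The shares were 28.9% and 29.7% against ML, and 14.3% and 17.5% in LP against ML. Lrg1, an acute-phase glycoprotein gene, had a mean CPM of 6.36 among MaSC/basal, 344 among LP and 87.3 among ML libraries, which is 54.0-fold and 13.7-fold above MaSC/basal (edgeR adjusted p = 4.08e-06 and 3.09e-05) and 3.93-fold higher in LP than in ML (edgeR adjusted p = 0.00474). Of 10 STAT5 partner and modifier genes, 2 were higher and 3 lower in MaSC/basal than in LP, 6 and 3 against ML, and 5 were higher and 1 lower in LP than in ML, where 3 were higher without LP replicate 1, ML replicate 1 or ML replicate 3. Erbb4, a growth factor receptor gene whose product works with STAT5A in alveolar cells, had a mean CPM of 0.405, 16.9 and 6.81 in the same order (41.5-fold and 16.9-fold, edgeR adjusted p = 4.08e-06 and 1.62e-05). Cav1, a membrane protein gene whose product holds back JAK2, averaged 553, 58.2 and 271 CPM, lower in LP than in MaSC/basal (9.50-fold, edgeR adjusted p = 1.86e-05) and than in ML (4.66-fold, edgeR adjusted p = 0.00122).

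The genes whose pattern over the 11 libraries was most like that of a member were found by the root mean square difference of centred log2 CPM, as a description. For Prlr they were Ttc6 (0.362), AW112010 (0.432) and Gm20016 (0.446). Ttc6 averaged 0.111 CPM among MaSC/basal, 5.61 among LP and 21.1 among ML libraries. For Stat5a they were Thnsl2 (0.144), Sema4c (0.251) and Arsg (0.289), for Cish Nr3c2 (0.507), Gfra3 (0.536) and Fam71a (0.544), and for Socs2 Fem1b (0.185), Micall1 (0.254) and Il4ra (0.258). Nr3c2, the mineralocorticoid receptor gene, was at 24.6, 47.8 and 48.6 CPM in the sorted populations and at 1.53 and 0.613 CPM in the cultures. Some of these genes were near the floor. Gfra3 was at 0 CPM and Fam71a at 0.180 and 0.0681 CPM in the cultures, and Ttc6 and Gm20016 averaged 0.111 and 0.160 CPM in MaSC/basal. At such levels the log2 values depend on the prior count of 2 that was added. When the 9 sorted libraries alone were used, 0 of the 3 genes were shared for each of these members.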

How the data were processed

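The authors aligned 100-base single-end RNA-seq reads to the mouse genome (mm10) with Rsubread and assigned them to genes with featureCounts. Their deposited values are raw read counts per gene for each of the 11 libraries, beside a gene length. The submitters' processing notes also list CASAVA 1.8.0, edgeR 3.6.2 and limma 3.20.5.

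Here counts were scaled by TMM, genes above 0.5 CPM in at least 3 libraries were kept (15422 of 27179), and a model with 5 sample type means was fitted to all libraries with edgeR 4.0.16. Quasi-likelihood tests compared MaSC/basal, LP and ML cells, with Benjamini-Hochberg adjustment over all kept genes and a threshold of 0.05. RPKM was CPM divided by the deposited gene length in kilobases. The 2 cultures, with 1 library each, were not tested. The procedure was tested on simulated data. Gene IDs were matched to RefSeq symbols for 25275 genes. The members and gene lists were chosen with earlier results of these data known. From each list, the 2 genes with the largest called differences in each direction were eligible to be named, together with genes below the filter.

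Libraries of the same batch label deviated together more than others: the correlation of their deviations from the population means was -0.118 to 0.526 over 9 pairs, against -0.419 to 0.114 over 18 pairs from different batches. Batch was therefore also fitted as a replicate block. Other alternatives were other scalings (RLE, library size alone), DESeq2 1.42.0, limma 3.58.1 voom, other filters, the 9 sorted libraries alone, and leaving out each sorted library.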

Additional observations from a re-analysis of the deposited data

How the results depend on the processing

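The 3 comparisons of the 10 genes gave 510 values over all alternatives, of which 472 kept direction and side of the threshold, 23 lost the call, 11 gained it and 4 turned direction. The 4 were uncalled throughout: Cish in MaSC/basal minus ML was 0.13 without MaSC/basal replicate 3 and 0.11 without ML replicate 2 (-0.49 to 0.13 over the libraries left out), and Stat5b in LP minus ML was 0.088 without LP replicate 2 and 0.054 without ML replicate 1 (-0.20 to 0.088). With batch as a replicate block, Socs3 in MaSC/basal minus ML passed the threshold (1.19, edgeR adjusted p = 0.0246), and no other member call changed. Library size alone left 0 members higher in LP than in ML and no filter left 1, against 2. Library size alone moved the median of all genes by -0.17 in LP minus ML and 0.15 in MaSC/basal minus LP, and the share of LP minus ML calls that were higher in LP from 45.0% to 29.4%. It also put 2 members past the fold upwards in mammospheres. Leaving out 1 library gave 0 to 2 members higher in LP and 2 to 4 higher in ML, 1407 to 2382 and 1666 to 2759 of all genes, 17 to 29 and 7 to 13 genes of the other lists, and 16 to 27 such genes higher in MaSC/basal than in ML. The LP minus ML calls of Jak2, Stat3, Stat6 and Socs3 were lost under several of these, and those of Prlr and Stat5a were made under every alternative. The cause was not tested. Depth differed 19958838 to 75795034 reads between libraries, and 3 reads correspond to 0.0399 to 0.160 CPM in sorted cells.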

Other observations

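Of the 10 early response genes known to rise during tissue dissociation, 1 was higher and 3 lower in MaSC/basal than in LP (29.4% and 28.0% of all genes), 1 and 2 against ML (28.9% and 29.7%), and 1 was higher and 0 lower in LP than in ML (14.3% and 17.5%). The median log2 differences of the list were -0.81, -0.093 and 0.27. The 3 lower than LP became 6 with the DESeq2 Wald test and 5 with limma voom or without MaSC/basal replicate 2 or LP replicate 2, and the 2 lower than ML became 4 with either tool or without MaSC/basal replicate 2. Dusp1, a phosphatase gene that dampens MAP kinases, averaged 784, 432 and 378 CPM among the MaSC/basal, LP and ML libraries. Jun averaged 995, 3271 and 3193 CPM in the same order. In the mammosphere library 9 of the 10 were over 2-fold below the MaSC/basal mean and outside its range, where 20.7% of all genes were. In Comma Dβ cells all 10 were, against 25.7% of all genes.

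Of the 10 STAT3 target genes, 6 were past the fold downwards and 3 upwards in mammospheres (20.7% and 19.5% of all genes) and 8 and 1 in Comma Dβ cells (25.7% and 16.7%), at median log2 ratios of -1.97 and -2.76. Fos and Junb belong to this list and to the early response genes. Of the 13 prolactin and STAT5 target genes, 5 were past the fold downwards and 5 upwards in mammospheres. In Comma Dβ cells 10 of the 13 were past the fold downwards and 1 upwards. In mammospheres Elf5 was 28.5-fold, Csn3 24.3-fold, Csn1s1 9.48-fold and Bcl2l1 8.10-fold above the MaSC/basal mean. Csn1s2a was 35.1-fold and Csn2 10.0-fold below it there. Jak3 was at 23.2 CPM in mammospheres, between MaSC/basal and luminal cells, and at 6.84 CPM in Comma Dβ cells. Erythroid marker genes stayed at or under 10.1 CPM in every library.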
